A study of Homo sapiens with 9 samples.

Results

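Tissue inhibitors of metalloproteinases (TIMPs) and a set of the matrix metalloproteinases (MMPs) that they hold in check were followed in RKO, a colorectal cancer cell line, after loss of the DNA methylation regulator UHRF1, inhibition of histone deacetylases, or both. The members were TIMP1, TIMP2, TIMP3, TIMP4, MMP1, MMP2, MMP7 and MMP14, and every array probe that carried one of these gene names was taken. That gave 9 probes for 8 genes, out of 50599 probes and 34679 gene names on the array. The set was put together knowing that TIMP2 came on and TIMP3 stayed dim when UHRF1 depletion was combined with the deacetylase inhibitor, so every member value on the arrays of that combination is a description and carries no test.

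Gene expression was measured on 9 one-colour arrays. In 8 of them RKO cells were transfected with an siRNA for 72 h and then given ethanol as mock or 300 nM trichostatin A (TSA), a histone deacetylase inhibitor, for 24 h. The groups were siCONT (control siRNA and mock), siUHRF1 (UHRF1 siRNA and mock), siCONT + TSA (control siRNA and TSA) and siUHRF1 + TSA (UHRF1 siRNA and TSA), with 2 arrays each, and replicates 1 and 2 of both UHRF1-depleted groups carried the siRNAs siUHRF1-1 and siUHRF1-2. The last array came from RKO cells given 1 µM 5-aza-2'-deoxycytidine (5-aza-dC), which traps DNA methyltransferases, for 72 h, with no siRNA. The UHRF1-depleted arrays of a group thus came from separate transfections, whereas no label says so of the control siRNA arrays, where the spread may be technical. The median absolute log2 difference between the 2 arrays was 0.261 in siUHRF1 and 0.19 in siUHRF1 + TSA, beside 0.0699 in siCONT and 0.0756 in siCONT + TSA.

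TIMPs are small secreted proteins that sit in the active site of metalloproteinases and block it. TIMP2 has a further role, because together with membrane-bound MMP14 it brings the precursor of MMP2 to the cell surface, where MMP14 cleaves it into the active form. TIMP3 stays bound to the extracellular matrix, also inhibits ADAM and ADAMTS proteases, and is among the genes whose promoter CpG island is often methylated in colorectal cancer. Of the proteases, MMP1 cuts fibrillar collagens, MMP2 cuts denatured collagen and basement membrane collagen, and MMP7 is a short protease made by epithelial cells.

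What each array read was a 60-base probe, and the first 30 bases of the probes on which the results turn are shown as the array files give them. Coordinates are those of hg19, and every probe shown here matched a RefSeq accession of its gene. TIMP1 was read at chrX:47444666-47444725 on the plus strand, TIMP2 at chr17:76849063-76849122 on the minus strand, and TIMP3 at chr22:33258540-33258599 on the plus strand. MMP1 was read at chr11:102660697-102660756 on the minus strand and MMP14 at chr14:23315791-23315850 on the plus strand.
TIMP1: catggagagtgtctgcggatacttccacag
TIMP2: tgctttgtatcattcttgagcaatcgctcg
TIMP3: caagatggcacccaagtgtttggcttctgg
MMP1: acatgtgcagtcactggtgtcaccctggat
MMP14: ggactgccaagccaccctaagaccttggga

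The 250 bases upstream of the start of TIMP1, TIMP3 and MMP7 are shown next, since these genes stood for a probe that was bright everywhere, a dim probe with a CpG-rich promoter, and a dim probe with a CpG-poor promoter. The sequences come from RefSeq on GRCh38.p14, run in the direction of the gene and have each CpG in capitals. They lie at chrX:47582186-47582435 on the plus strand for TIMP1, chr22:32801455-32801704 on the plus strand for TIMP3 and chr11:102530748-102530997 on the minus strand for MMP7. The promoter table matched 5 of the 8 members, and TIMP2, MMP1 and MMP2 are named only.
TIMP1: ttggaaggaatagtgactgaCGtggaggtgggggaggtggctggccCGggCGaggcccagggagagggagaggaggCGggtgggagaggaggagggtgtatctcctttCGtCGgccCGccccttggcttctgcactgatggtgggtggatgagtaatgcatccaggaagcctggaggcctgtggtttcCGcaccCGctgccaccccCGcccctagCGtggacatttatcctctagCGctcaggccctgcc
TIMP3: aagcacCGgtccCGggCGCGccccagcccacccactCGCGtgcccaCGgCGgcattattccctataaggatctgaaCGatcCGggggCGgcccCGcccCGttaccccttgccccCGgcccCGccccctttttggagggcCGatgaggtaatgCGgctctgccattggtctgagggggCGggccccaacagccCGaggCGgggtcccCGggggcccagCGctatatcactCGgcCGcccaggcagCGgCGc
MMP7: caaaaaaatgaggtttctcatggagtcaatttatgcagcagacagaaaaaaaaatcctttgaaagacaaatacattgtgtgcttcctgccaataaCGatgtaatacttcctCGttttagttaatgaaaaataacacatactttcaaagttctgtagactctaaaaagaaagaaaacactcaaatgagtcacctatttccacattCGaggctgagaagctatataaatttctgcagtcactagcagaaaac

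TIMP3 had the most CpGs of the 5 promoters, with 26 in 250 bases, a count reached by 19.6% of 35116 promoters of the same length. TIMP1 had 12, TIMP4 11, MMP14 7 and MMP7 3, beside a median of 11 over all promoters. The motif GGGCGG, searched on both strands, was found 5 times in TIMP3, 2 times in TIMP1, once each in TIMP4 and MMP14 and not in MMP7, and 42.6% of all promoters held it. TGACTCA, a motif bound by AP-1, was found once in MMP7 and in 4.2% of all promoters. The study designed bisulfite pyrosequencing of TIMP3 against the 19 bases CGattCGggggCGgtttCG, which is sequence after bisulfite conversion with its 4 CpGs in capitals, and these match the TIMP3 promoter from 174 to 156 bases before the gene start. A second target of 13 bases with 3 CpGs, CGtttggtCGgCG, did not match, which says only that these letters are not in the promoter table entry. The study also lists a quantitative RT-PCR assay of TIMP3 RNA. Neither its values nor any methylation value was analysed here.

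Signals are given as a percentage of the 75th percentile of all non-control spots on the same array, or as the log2 of that ratio. A probe was counted as above background on an array when the scanner software marked over 0.5 of its spots as well above background, and where that failed the value is only a bound. The 75th percentile lay between 245 and 338 signal units on the siRNA arrays and at 822 on the 5-aza-dC array, which was on another slide and in another scan. The 8 siRNA arrays shared 1 slide, with mock in row 1 and TSA in row 2 and with siCONT in columns 1 and 2 and siUHRF1 in columns 3 and 4, so position and treatment cannot be told apart. The targeted gene, UHRF1, had a log2 difference of -2.47 between siUHRF1 and siCONT (limma adjusted p = 0.00237, standard error 0.141) and of -3.35 between siUHRF1 + TSA and siCONT + TSA (limma adjusted p = 0.000132). Of 11 markers of colorectal epithelium, KRT8, KRT18, CDX1 and CDX2 were above background on every siRNA array, whereas CDH1, VIL1 and LGALS4 were above it on none. In bulk RNA, fewer cells with a transcript and less of it per cell cannot be told apart.

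The inhibitors fell into 3 kinds. TIMP1 was bright on every array, TIMP2 went from background to a clear signal wherever UHRF1 was depleted or 5-aza-dC was given, and TIMP3 and TIMP4 stayed at background on nearly all arrays. Among the proteases, MMP14 was above background on all 9 arrays, MMP1 was above it on the siUHRF1 + TSA and 5-aza-dC arrays, and MMP2 and MMP7 were above it on none. In all, 4 of the 9 member probes passed the filter for testing (above background on each array of some siRNA group), namely those of TIMP1, TIMP2, MMP1 and MMP14, and MMP1 passed through the combination alone.

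**Figure D1:**
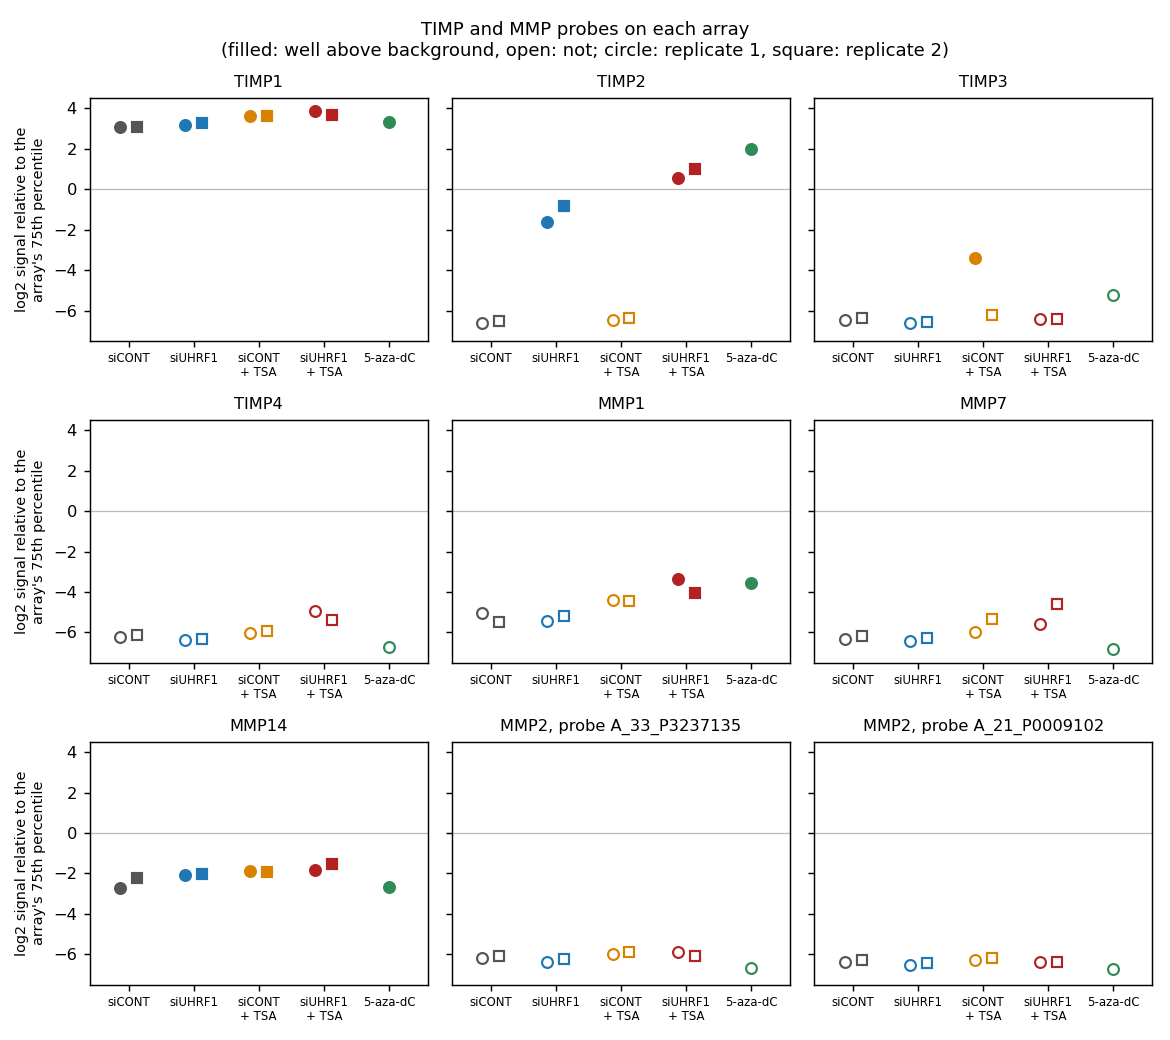
Signal of each TIMP and MMP probe on each array, as log2 relative to the array's 75th percentile (vertical axis), by group (horizontal axis); each point is 1 array, filled where the probe was well above background and open where it was not, with circles for replicate 1 and squares for replicate 2. TIMP1 lay between 3.08 and 3.85 everywhere, TIMP2 rose from below -6 on the siCONT arrays to 0.54 and 0.99 on the siUHRF1 + TSA arrays, and TIMP3 was filled on a single siCONT + TSA array.

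TIMP2 signal was 1.00% and 1.08% of the 75th percentile on the siCONT arrays and 1.13% and 1.22% on the siCONT + TSA arrays, none of them above background. It was 33.1% and 56.2% on the siUHRF1 arrays, 146% and 199% on the siUHRF1 + TSA arrays and 394% on the 5-aza-dC array, all above background. All arrays with UHRF1 depletion therefore lay above all arrays with the control siRNA, with no overlap, and the siUHRF1-2 array was the brighter one in both UHRF1-depleted groups. In siUHRF1 against siCONT, a comparison that holds none of the combination arrays but shares the siCONT arrays with it, TIMP2 was at least 8.62-fold higher (log2 difference 5.37). TIMP2 passed the filter through the UHRF1-depleted groups where it is high, so it had to differ from siCONT and the value is given as a description without a p. The log2 difference rests on siCONT signals below background and is no bound. Under normexp background correction it was 1.77, below the 8.62-fold limit, which is given only for the signals as deposited. The normexp setting added an offset of 50 signal units, which makes differences of dim probes smaller.

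Of the 17759 genes below background on both siCONT arrays, 1.46% were above it on both siUHRF1 arrays, and of the 6 members that were below it there, TIMP2 alone was. The set was chosen knowing that TIMP2 came on with the same siRNAs plus TSA, so nothing is read from this count. On both siCONT + TSA arrays 0 of these 6 members were above background, beside 0.952% of all such genes. On both siUHRF1 + TSA arrays TIMP2 and MMP1 were, beside 3.67% of all such genes, but the members were chosen on that group and nothing is read from this count. On the 5-aza-dC array the same 2 of 6 were above background, beside 15.3% of all such genes, and nothing is read from this count for the same reason.

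The levels of TIMP2 are given as a description, since the set was chosen knowing that it came on in the combination. Its mean log2 level was 1.98 on the single 5-aza-dC array, 0.77 ± 0.32 (SD, n = 2) in siUHRF1 + TSA and -1.21 ± 0.54 (SD, n = 2) in siUHRF1, and no array of one of these conditions overlapped with another. The siCONT and siCONT + TSA groups followed at -6.58 and -6.42, where both are bounds and have no order. As a description, TIMP2 in siUHRF1 + TSA was 3.94-fold higher than in siUHRF1, where both groups were measured, and at least 34.0-fold higher than in siCONT and at least 30.1-fold higher than in siCONT + TSA. Those 2 limits hold for the signals as deposited: under normexp the log2 differences were 3.39 and 2.62, below them. On the 5-aza-dC array TIMP2 was at least 78.7-fold higher than in siCONT and 2.32-fold higher than in siUHRF1 + TSA, without replicates. Under normexp the log2 difference from siCONT was 4.71, below that limit. The log2 difference of 1.21 from siUHRF1 + TSA was smaller than the move of the median of all probes with spike-in scaling (-1.29 against siCONT). The order of 5-aza-dC and siUHRF1 + TSA therefore depends on the scaling. UHRF1 itself was 2.00-fold higher on the 5-aza-dC array than in siCONT, on the probe used for the knockdown check. That log2 difference of 1 was also smaller than the move with spike-in scaling.

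TIMP1, an inhibitor of most soluble MMPs that is also a secreted growth factor, was above background on all 9 arrays. Its signal was 860% and 846% of the 75th percentile in siCONT, 907% and 960% in siUHRF1, 1220% on both siCONT + TSA arrays, 1440% and 1270% in siUHRF1 + TSA and 982% on the 5-aza-dC array. Every treated array lay above both siCONT arrays. In siCONT + TSA against siCONT, TIMP1 rose by 0.51 on the log2 scale, or 1.43-fold (limma adjusted p = 0.0302, standard error 0.1). In that comparison 7.1% of all 17052 genes tested were called higher and 3.96% lower, so a rise of this kind was not rare. Leaving out any 1 of the 4 arrays compared left a single array in its group and ended the call. Most of the probes called in this comparison lost their call too. The log2 difference of TIMP1 stayed between 0.50 and 0.53.

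In siUHRF1 against siCONT, TIMP1 differed by 0.13 on the log2 scale (95% confidence interval -0.11 to 0.37, adjusted p = 0.813 from limma). Here 0.627% of all genes tested were called higher and 0.0235% lower. In siUHRF1 + TSA the TIMP1 level was 1.58-fold that of siCONT and 1.11-fold that of siCONT + TSA, as a description. On the 5-aza-dC array it was 1.15-fold that of siCONT. On that array the direction turned to a log2 difference of -1.11 with spike-in scaling, which moved the median of all probes by -1.29.

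TIMP3 signal was 1.13% and 1.21% of the 75th percentile in siCONT, 1.01% and 1.07% in siUHRF1, and 1.15% on both siUHRF1 + TSA arrays, none above background. In siCONT + TSA the first array read 9.39%, above background, and the second 1.34%, at background. No fold change was taken from 1 spot on 1 array. The 5-aza-dC array read 2.65%, more than any other array but 1, and still not above background there.

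TIMP4, an inhibitor found mainly in heart and other muscle, was at background on all 9 arrays. It read 1.33% and 1.42% in siCONT, 1.19% and 1.26% in siUHRF1, 1.55% and 1.65% in siCONT + TSA, 3.30% and 2.35% in siUHRF1 + TSA and 0.956% on the 5-aza-dC array. The highest values were those of the combination, but without a signal above background no difference is taken from them.

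3 of the TIMP genes lie inside a synapsin gene: TIMP1 in SYN1, TIMP3 in SYN3 and TIMP4 in SYN2, while CEP295NL lies inside TIMP2. Synapsins coat synaptic vesicles in neurons. None of these 4 partner genes was above background on any siRNA array, so the siRNA arrays showed TIMP2 signal without CEP295NL signal. On the 5-aza-dC array CEP295NL was above background and at least 6.21-fold higher than in siCONT, SYN1 was above background with a log2 level of -4.63, and SYN2 and SYN3 were not above it.

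MMP14, the membrane-bound protease that activates the MMP2 precursor, read 15.0% and 21.1% of the 75th percentile in siCONT, 23.9% and 24.5% in siUHRF1, 27.4% and 26.3% in siCONT + TSA, 28.1% and 34.1% in siUHRF1 + TSA and 15.8% on the 5-aza-dC array. All treated siRNA arrays lay above both siCONT arrays, and the 5-aza-dC array lay between them. In siUHRF1 against siCONT the log2 difference was 0.44 (95% confidence interval 0.00 to 0.89, adjusted p = 0.56 from limma). In siCONT + TSA against siCONT it was 0.59 (95% confidence interval 0.15 to 1.04, adjusted p = 0.0919 from limma). Neither passed the test. The siUHRF1 + TSA level was 1.74-fold that of siCONT, as a description.

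MMP1, the interstitial collagenase, was read by 10 spots on each array. Its mean signal was 3% and 2.21% of the 75th percentile in siCONT, 2.32% and 2.71% in siUHRF1, and 4.77% and 4.66% in siCONT + TSA, and these 6 arrays were not above background. It was 9.63% and 6.09% in siUHRF1 + TSA and 8.53% on the 5-aza-dC array. The 10 spots were all above background on the first siUHRF1 + TSA array and on the 5-aza-dC array, and 6 of 10 were on the second siUHRF1 + TSA array. At most 2 of 10 were on any other array. As a description, MMP1 was at least 1.53-fold higher in siUHRF1 + TSA than in siCONT, and at least 1.71-fold higher on the 5-aza-dC array. These limits hold for the signals as deposited: under normexp background correction the log2 differences were 0.29, below that limit, and -0.31.

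MMP1 is one of 9 MMP genes that follow each other on chromosome 11 in the order MMP7, MMP20, MMP27, MMP8, MMP10, MMP1, MMP3, MMP12 and MMP13. On the siRNA arrays MMP1 was the only one of the 9 above background. On the 5-aza-dC array MMP8 was above it as well, at least 1.44-fold higher than in siCONT, and the other 7 were not.

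MMP7 read 0.878% to 4.07% of the 75th percentile, highest on the second siUHRF1 + TSA array, and MMP2 had 2 probes that lay 116847 bases apart. All of these were at background on all 9 arrays. The second MMP2 probe, at chr16:55423671-55423730, matched no RefSeq accession of the gene, so it may not read MMP2. At this sensitivity no change of MMP2 or MMP7 was detectable.

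**Figure D2:**
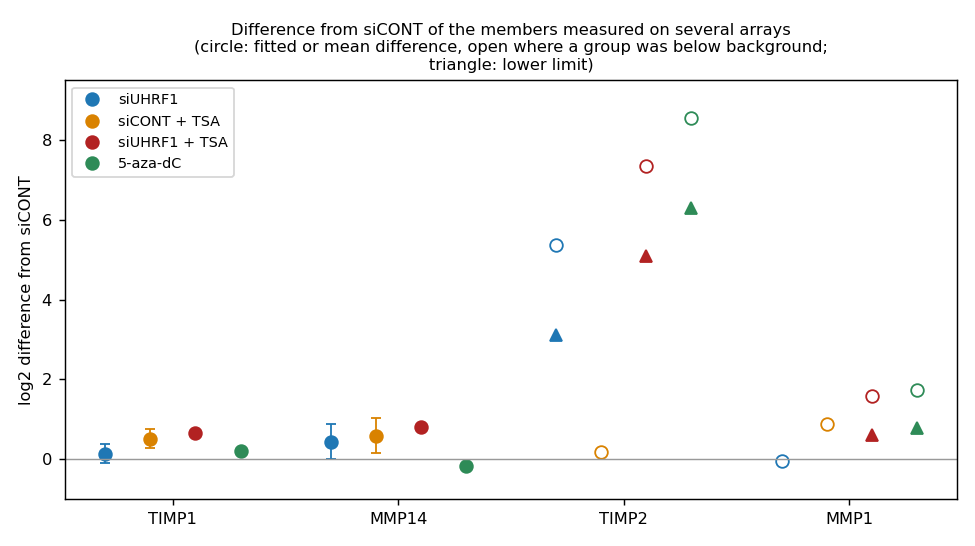
Log2 difference from siCONT (vertical axis) of the 4 members that passed the filter (horizontal axis), for siUHRF1, siCONT + TSA, siUHRF1 + TSA and 5-aza-dC; circles are differences of group means, open where a group was below background, bars are 95% confidence intervals for TIMP1 and MMP14 where a test was made, and triangles are lower limits. TIMP2 stood above the others, with lower limits of 8.62-fold, 34.0-fold and 78.7-fold for the signals as deposited, and TIMP1 and MMP14 stayed within 1 log2 unit of siCONT.

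The probes whose level followed each member most closely over the 8 siRNA arrays are given as a description, with no p, since arrays of a group share their treatment. For TIMP2 they were ACSS1 and TET1 (r = 0.997 each) and BMP2 (0.996), and for TIMP1 they were COMMD5 (0.998), CBR1 (0.997) and FLNA (0.996). For MMP14 they were CXCL5 (0.972), SP140L (0.971) and IFT122 (0.958), and for MMP1 they were POLRMT (0.994), TSPAN1 (0.990) and TOLLIP (0.989). TIMP2 was below background on the siCONT and siCONT + TSA arrays, and MMP1 on every siRNA array but those of siUHRF1 + TSA. The correlations of both rest partly on such signals and on the arrays that the choice of the set used.

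The proteases, inhibitors and matrix proteins that surround the TIMPs and MMPs were taken as 7 lists of 121 genes, all on the array, of which 61 passed the filter and 51 were above background on no siRNA array. Each gene was represented by its probe of highest mean signal. UHRF1 depletion alone called 2 genes higher and 0 lower of the 61 (limma), beside 0.627% and 0.0235% over all genes. At an unadjusted p below 0.05 in limma, 6 were higher and 3 lower, and the methods' t-test called 3 higher and 2 lower at that threshold and 0 after Benjamini-Hochberg adjustment. TSA alone called 4 higher and 2 lower, beside 7.1% and 3.96% over all genes, which is about the same share. Their combination against siCONT called 18 higher and 3 lower, beside 16.3% higher and 8.29% lower over all genes tested, with a median log2 difference of 0.27 beside 0.065. UHRF1 depletion among TSA-treated cells called 8 higher and 0 lower, beside 3.28% and 0.604% over all genes. At an unadjusted p below 0.05 these were 14 and 0 in limma and 13 and 3 in the methods' t-test, which called 0 after Benjamini-Hochberg adjustment. Of the 18 genes higher in the combination, TFPI2, COL1A2, ADAMTS4 and DCN (4) passed the filter through the combination arrays alone and had to differ from siCONT, so nothing is read from their calls and their values are given without a p. The same holds for 3 of the 8 genes higher among TSA-treated cells, TFPI2, COL1A2 and ADAMTS4. The median of 0.27 for the combination also includes the 4 genes that passed through it alone, so nothing is read from that median.

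These counts depended on single arrays, and leaving an array out leaves a single one in its group. Over all probes tested, fewer were also called for TSA alone, for the combination against siCONT and for UHRF1 depletion among TSA-treated cells. The loss was therefore not particular to the list genes. For UHRF1 depletion alone, more probes were called over the whole array. TSA alone called 0 genes higher and 0 lower without any 1 of the 4 arrays compared, and UHRF1 depletion alone called 0 higher without siCONT replicate 1. The 18 genes higher in the combination became 11 without siCONT replicate 1, 10 without siCONT replicate 2 and 11 without siUHRF1 + TSA replicate 1, and the 8 higher among TSA-treated cells became 4 or 5 without any 1 of the 4 arrays compared.

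UHRF1 depletion alone raised MMP23B, a membrane-anchored MMP, by a log2 value of 1.16 (limma adjusted p = 0.00795). SERPINF1, a secreted serpin that blocks blood vessel growth and is not itself a protease inhibitor, rose by 1.87 (adjusted p = 0.0498 from limma), just past the threshold, and lost the call in 12 of 20 alternative settings. MMP23B has a near-identical copy, MMP23A, so its probe may read both. TSA alone raised SERPINF1 by 1.5 (adjusted p = 0.0215 from limma), MMP25 by 0.60, ADAM10, the sheddase of Notch, by 0.54, and basigin (BSG), an inducer of MMP production, by 0.54. It lowered ADAM17, the sheddase of tumour necrosis factor, by 0.57 on the log2 scale, and ADAMTS17 fell at least 2.03-fold (adjusted p = 0.0114 from limma). The calls of MMP25, ADAM10, ADAM17 and BSG were each lost in 7 to 11 of 20 alternative settings. Under normexp background correction ADAMTS17 turned to a log2 difference of 0.29.

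In the combination TFPI2 and SERPINF1, from the list of other inhibitors, and 2 collagen genes had the largest fitted differences, of which those of TFPI2 and COL1A2 rest on siCONT signals below background and set no order. TFPI2, a Kunitz-type inhibitor of serine proteases that protects the matrix, was below background on the siCONT and siCONT + TSA arrays, read 1.68% and 5.95% of the 75th percentile in siUHRF1, above background on the second array, and reached 27.9% and 16.5% in siUHRF1 + TSA. It was at least 4.29-fold higher in siUHRF1 + TSA than in siCONT. COL1A2, a chain of type I collagen, was at background in the other 3 siRNA groups and read 21.4% and 19.3% in the combination, at least 4.06-fold higher than in siCONT. These limits hold for the signals as deposited. The lowest log2 differences among alternative settings were 1.14 for TFPI2 and 0.95 for COL1A2, below the limits. SERPINF1 rose by 3.45 on the log2 scale, from 10.3% and 9.71% to 105% and 114%. COL5A1, a chain of type V collagen, rose by 2.56.

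Of the other named genes of the combination, MMP23B rose by 2.28 and ADAM8, a protease of leukocytes and tumour cells, by 1.59. ADAMTS4, an aggrecan-cutting protease, was at least 1.49-fold higher and DCN (decorin) at least 1.23-fold higher. COL1A1 rose by 1.67 (adjusted p = 0.0364 from limma) and LAMA1, a laminin chain, by 1.5 (adjusted p = 0.0387 from limma). Each of these last calls was lost in 8 of 20 alternative settings, and LAMA1, which read 542% and 265% on the combination arrays, lay between 0.98 without siUHRF1 + TSA replicate 1 and 2.01 without replicate 2. COL1A1 lay between 1.19 without siUHRF1 + TSA replicate 2 and 2.14 without replicate 1. In siCONT + TSA against siCONT the log2 differences were 1.32 for COL1A1 and 0.85 for LAMA1. UHRF1 depletion among TSA-treated cells gave 0.35 and 0.65, and none of these was called. The first combination array read 35% for COL1A1, below both siCONT + TSA arrays (39.6% and 37%). Among the 19 tested genes of matrix proteins 7 were called higher and 0 lower, and among the 8 tested other MMPs 4 were called higher and 0 lower. Over all genes tested 16.3% were called higher and 8.29% lower. The 7 include COL1A2 and DCN, which passed the filter through the combination alone, so nothing is read from these small counts.

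Several of these collagens and DCN are also markers of fibroblasts. The summed signal of 8 fibroblast markers was 31.2% and 31.9% in siCONT, 36.0% and 56.9% in siUHRF1, 62.0% and 59.4% in siCONT + TSA, 125% and 151% in siUHRF1 + TSA and 138% on the 5-aza-dC array. COL3A1 and FAP were above background on none of the siRNA arrays. THY1 and PDGFRB were below it in siCONT and read 30% and 32.6%, and 12.8% and 14%, in siUHRF1 + TSA, all above it. LUM read 18.1% and 7.97% there. The fibroblast sum includes COL1A1, COL1A2 and DCN themselves. The summed signal of 4 endothelial markers was 17.5% and 17.2% in siCONT, 17% and 20.5% in siUHRF1, 28.4% and 23.2% in siCONT + TSA, 69.4% and 56.1% in siUHRF1 + TSA and 17.9% on the 5-aza-dC array. VWF made up most of it in the combination, at 58.7% and 47.3%, while PECAM1 and KDR were above background on no array. That of the 11 epithelial markers lay between 5060% and 6270% in the other 3 siRNA groups and was 9460% and 7740% in siUHRF1 + TSA, most of it KRT18 (8360% and 6920%). The sum of 5 leukocyte markers was 346% and 324% in siCONT and 587% and 226% in siUHRF1 + TSA, so that the combination arrays lay on either side of siCONT. CD68 made up most of it, at 558% and 206% in siUHRF1 + TSA. CSF1R was below background in siCONT and read 13% and 8.86% in siUHRF1 + TSA, above it, while CD3E was above background on no siRNA array. The labels name only RKO, a cultured cell line, for all arrays, and the part of other cell types in the result was not tested.

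**Figure D3:**
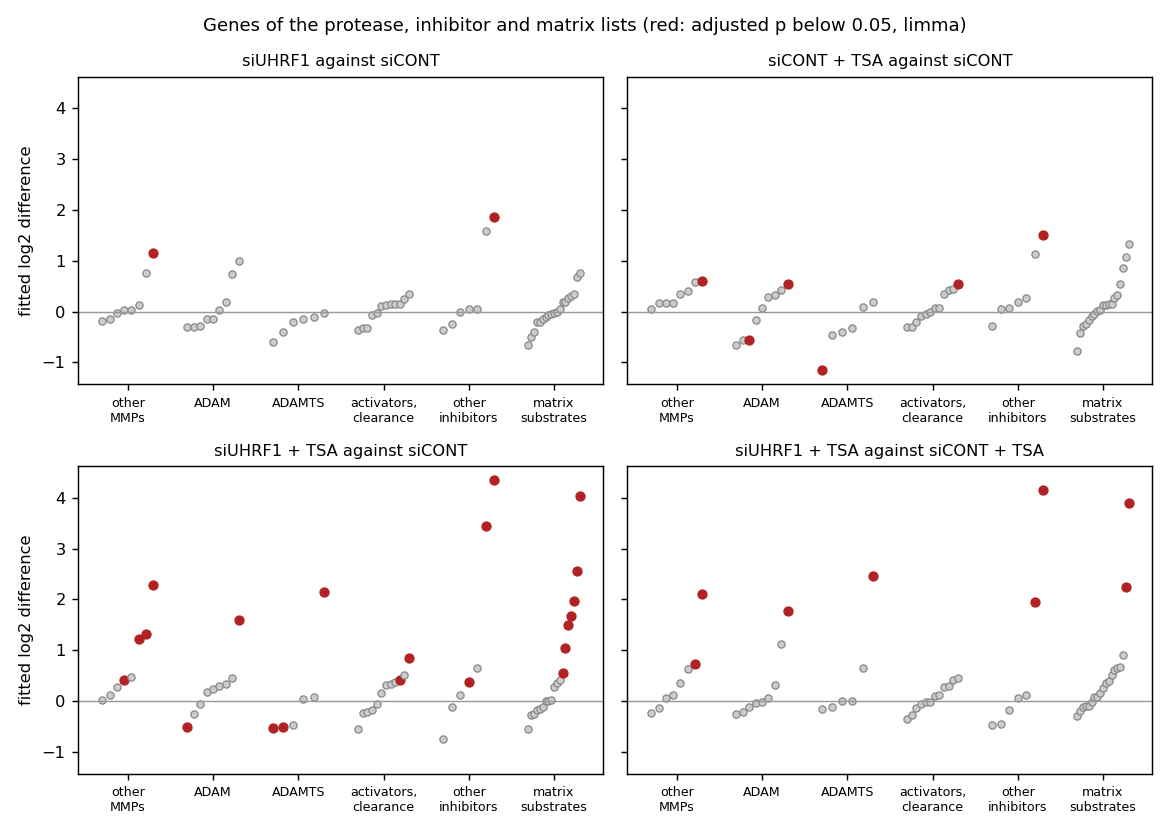
Fitted log2 difference (vertical axis) of each tested gene of the protease, inhibitor and matrix lists, by list (horizontal axis), in 4 comparisons; each point is 1 gene, red where its limma adjusted p was below 0.05. Few points are red for either treatment alone (2 and 6 genes), and 21 are red for the combination against siCONT.

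With TSA already present, COL1A2 was at least 3.59-fold and TFPI2 at least 3.79-fold higher after UHRF1 depletion, and UHRF1 depletion raised MMP23B by 2.11, SERPINF1 by 1.95 and ADAM8 by 1.76 on the log2 scale. The 2 limits hold for the signals as deposited, and the lowest log2 differences among alternative settings were 0.29 for COL1A2 and 0.43 for TFPI2. A test of whether UHRF1 depletion acted differently in TSA-treated and mock-treated cells called 0.375% of all genes tested and 2 of the 61 list genes, COL1A2 and ADAMTS4. Both were below background in the other 3 siRNA groups and passed the filter through the combination alone, so a positive difference was favoured by the filter and the calls do not show a differing response. For TIMP2 this difference was not tested, because the members were chosen on the combination arrays.

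**Figure D4:**
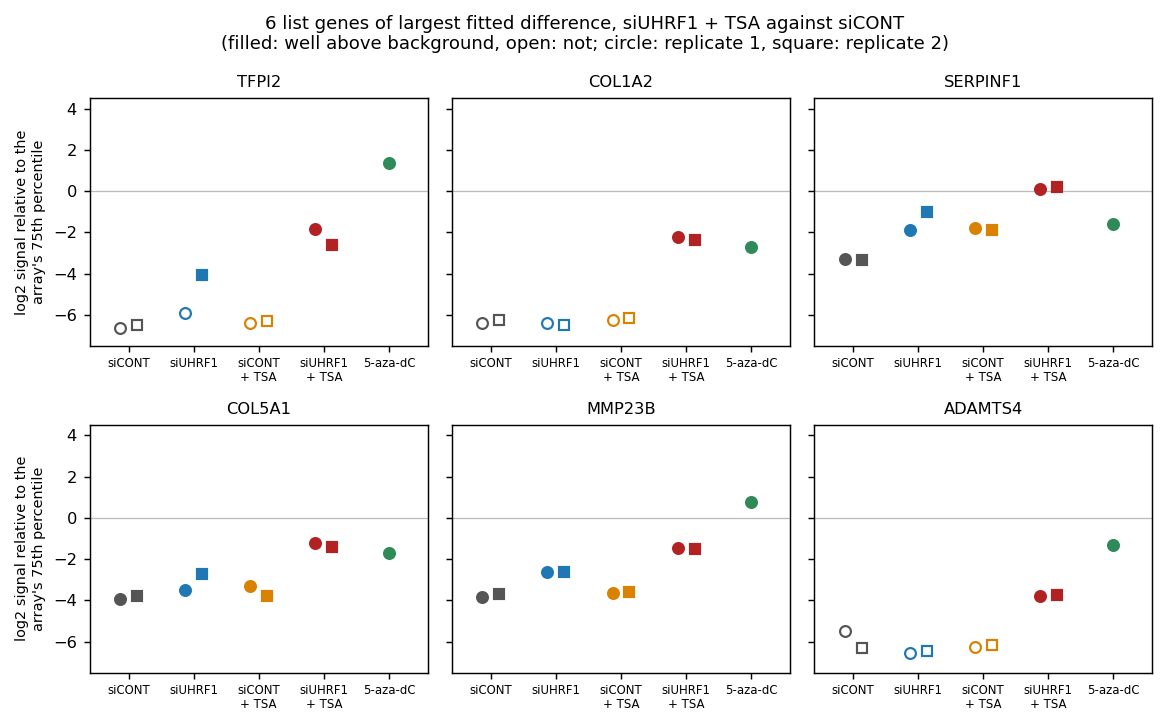
Signal of the 6 list genes with the largest fitted difference in siUHRF1 + TSA against siCONT, as log2 relative to the array's 75th percentile (vertical axis), by group (horizontal axis); filled points were well above background and open points were not, with circles for replicate 1 and squares for replicate 2. COL1A2 and ADAMTS4 were filled in the combination and with 5-aza-dC and open on the other arrays, whereas SERPINF1, COL5A1 and MMP23B were filled on all 9.

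On the 5-aza-dC array the comparison with siCONT has no replicates and no test. Of all genes above background on that array or on both siCONT arrays, 18.4% were past 2-fold higher and 13.1% past 2-fold lower. Of the 74 list genes compared in this way, 25 were past 2-fold higher and 10 lower. Of the 61 list genes below background on both siCONT arrays, 16 entered through the 5-aza-dC array where they were above it. For some of these, such as MMP8 (at least 1.44-fold), the lower limit was below 2-fold. Spike-in scaling moved the median of all probes by -1.29, so nothing is read from these counts. TFPI2 was at least 51.9-fold higher and MMP23B differed by 4.54 on the log2 scale. ADAMTS4 was at least 7.94-fold higher, SERPINE2, an inhibitor of thrombin and plasminogen activators, at least 5.23-fold, and COL7A1 at least 4.99-fold. ADAMTS13 differed by -2.59 and HSPG2 (perlecan) by -1.93.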

How the data were processed

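Total RNA (100 ng, label Cy3) from RKO cells was hybridised by the authors to SurePrint G3 Human GE v2 arrays. The deposited files hold each spot's intensity from Feature Extraction 10.7.3.1 after background subtraction, without normalization across arrays. A second deposited table gives these intensities rounded. The paper names GeneSpring GX but no normalization for the RKO arrays. Here log2 intensity was shifted by each array's 75th percentile, outlier spots were left out and spots of a probe averaged. Probes above background on each array of some siRNA group (23699) were fitted with limma 3.58.1 in R 4.3.3 on the 8 siRNA arrays, and called where the p-value after Benjamini-Hochberg adjustment was below 0.05. The procedure was tested on simulated data. For a lower limit each dim array took the higher of the probe's value and that array's lowest above-background signal. Every such limit holds for the signals as deposited and not under another background correction. The genes named were all members, UHRF1, the host and nested genes, up to 10 called list genes per comparison by size of change, with arrays that did not overlap, and the 3 probes most like each member that passed the filter; others were chosen after their values were seen. Members and lists were chosen with earlier results of these data known. Same-numbered arrays of siUHRF1 and siUHRF1 + TSA share an siRNA by their labels (correlation of deviations 0.47), whereas those of the other pairs of groups do not. The number of arrays limits the precision.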

Additional observations from a re-analysis of the deposited data

Results flagged for a closer look

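COL1A2 and ADAMTS4 were called for a difference between the effects of UHRF1 depletion in TSA-treated and mock-treated cells, with fitted log2 differences of 4 and 3.07. Both were above background only in the combination and with 5-aza-dC, and passed the filter through the combination alone. The calls therefore do not show a differing response, and the count of such genes was 0 under normexp background correction.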

How the results depend on the processing

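The rise of TIMP2 and the fall of UHRF1 kept their direction under all alternatives run, and the calls for TIMP1 and MMP14 in siUHRF1 and for MMP14 in siCONT + TSA kept their side of the threshold. The fit of TIMP2 in siUHRF1 against siCONT, given here without weight because the probe passed the filter through the groups where it is high, no longer passed the threshold under normexp (1.77) and in the methods' t-test after adjustment (5.37), and without single arrays it lay between 4.99 and 5.75. It could not be fitted with only probes above background on every siRNA array. Under normexp TIMP2 was 3.39 in siUHRF1 + TSA against siCONT, 2.62 against siCONT + TSA and 4.71 with 5-aza-dC, which was 7.25 with spike-in scaling; leaving out arrays gave 7.13 to 7.58, 6.96 to 7.41 and 8.51 to 8.62. UHRF1 lost its call in the t-test after adjustment (-2.47 and -3.35 with TSA) and lay between -2.61 and -2.33, and -3.49 and -3.21, without single arrays. TIMP1 in siCONT + TSA lost its call under normexp (0.26), spike-in scaling (0.70) and no filter (0.51), and lay between 0.50 and 0.53 without single arrays. MMP14 without single arrays lay between 0.20 and 0.69 in siUHRF1 and 0.34 and 0.84 in siCONT + TSA, and TIMP1 in siUHRF1 between 0.09 and 0.17.

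Counts of list genes moved more. Higher in siUHRF1, 2 became 0 under normexp and the adjusted t-test, 4 with spike-in scaling and 1 with no filter, the strict filter (probes above background on every siRNA array), outlier spots kept and the replicate block, and 0 to 3 without single arrays. The unadjusted t-test called 3 higher and 2 lower. Higher in siCONT + TSA, 4 became 0 under normexp and no filter, 7 with a trended prior, 9 and 16 in the adjusted and unadjusted t-test, and 0 to 7 without single arrays. Lower there, 2 became 0 under normexp and spike-in scaling, 1 with no filter, the strict filter and the replicate block, 9 in the unadjusted t-test, and 0 to 4 without single arrays. In siUHRF1 + TSA against siCONT, 18 higher became 11 under normexp, 1 in the adjusted t-test and 10 to 20 without single arrays, and 3 lower became 0 under normexp, spike-in scaling, no filter and the adjusted t-test, and 0 to 5 without single arrays. Against siCONT + TSA, 8 higher became 1 under normexp, 5 with the strict filter, 0 and 13 in the adjusted and unadjusted t-test, and 4 to 9 without single arrays, and 0 lower became 3 in the unadjusted t-test. Of the difference between effects, 2 became 0 under normexp, the strict filter and the trended prior, 1 with quantile normalization and the replicate block, 1 to 2 without single arrays, and 0 lower became 0 to 1. The replicate block ended no call for TIMP1, TIMP2 or UHRF1. Spike-in scaling moved the median of all probes by 0.396 in siUHRF1, 0.25 in siCONT + TSA and 0.335 in the combination, and of the probes called in the combination, 90.3% were higher with it, 64.5% without it and 52.9% with quantile normalization.

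For 26 named list gene comparisons, 389 of 512 alternative values kept their side of the threshold, 121 lost the call and 2 turned, both under normexp: ADAMTS17 in siCONT + TSA (0.29) and ADAMTS4 in siUHRF1 + TSA against siCONT + TSA (-0.26). MMP1 on the 5-aza-dC array also turned under normexp, to -0.31. The normexp offset of 50 signal units was larger than the MMP1 signals in siCONT (9.14 and 6.75). On the 5-aza-dC array MMP1 read 70.6 units and the 75th percentile was 822, beside 282 and 285 in siCONT. The cause of these changes was not tested. Signals below background limit every value of TIMP3, TIMP4, MMP2 and MMP7.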
